A study of Mus musculus with 37 samples.

Results

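The cell cycle and DNA replication genes examined here were 42 genes of 21450 gene symbols in the count table, chosen by name and divided by role into 9 genes of G1 and S-phase entry, 13 genes of DNA replication and 20 genes of G2 and mitosis. For each gene the probe with the highest total count was used, out of the 92 probes that carry the 42 symbols. The RNA came from liver sections of 37 wild-type CD1 mice of the outbred stock Crl:CD1(ICR), dosed once daily by oral gavage with HFPO-DA, a short-chain perfluoroalkyl ether acid, at a dose of 5, 0.5 or 0.1 mg/kg, or with deionized water as vehicle control (0 mg/kg). From the vehicle control to the highest dose, the males numbered 5, 5, 5 and 4 and the females 5, 5, 4 and 4. Males were about 6 weeks old at the first dose and received 84 to 85 doses, over 70 days before mating and 14 days of mating. Females were about 11 weeks old at the first dose and received 53 to 65 doses, from 14 days before mating through pregnancy to lactation day 20 or 21. Sex therefore cannot be told apart from age, number of doses or reproductive state in these groups. Each mouse gave 1 library, so the p-values measure the spread between individual mice. That spread was estimated for each probe over all 8 groups of both sexes together, not for each sex or group apart.

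A cell that is to divide raises D-type cyclins, which act with Cdk4 and Cdk6 on the Rb protein and release E2F factors, and cyclin E with Cdk2 then carries it into S phase. In S phase the MCM helicase, PCNA and the nucleotide-making enzymes copy the DNA, and in G2 and mitosis cyclins A and B with Cdk1, the Aurora and Polo kinases, the spindle checkpoint and the mitotic kinesins condense and divide the chromosomes. Adult hepatocytes are mostly quiescent, and replication and mitotic transcripts are known to be scarce in resting liver.

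Counts were low for many of these genes. Total counts per mouse ranged from 2101495 to 13878254, with a median of 7780828 in males and of 10479002.5 in females, and the 4 libraries under 5000000 counts were all from males (2 at 5 mg/kg, and 1 at each lower dose). Of the 42 genes, 37 passed the filter on low counts. The other 5 were Mcm4, a subunit of the replicative helicase (84 counts in all mice), Cdc6, which loads that helicase (71 counts), Nusap1, a spindle protein (44 counts), Foxm1, a transcription factor of the mitotic genes (18 counts, all in female 5 mg/kg replicate 2), and Ccnb2, cyclin B2 (11 counts). Of the 44 counts of Nusap1, 23 were in male 5 mg/kg replicate 1. Only 8 genes, Cdk2, Cdk4, Cdk6, Mcm3, Pcna, Rrm1, Gmnn and Cks2, had counts in every mouse. The median level over mice was under 1 CPM, a count per 1000000 counts of the scaled library total, for 17 genes, 13 of them among the 20 genes of G2 and mitosis, and above 10 CPM for 6 genes. A count of 0 at this depth does not show that a transcript was absent, and the counts of different probes are not on a common scale between genes.

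**Figure D1:**
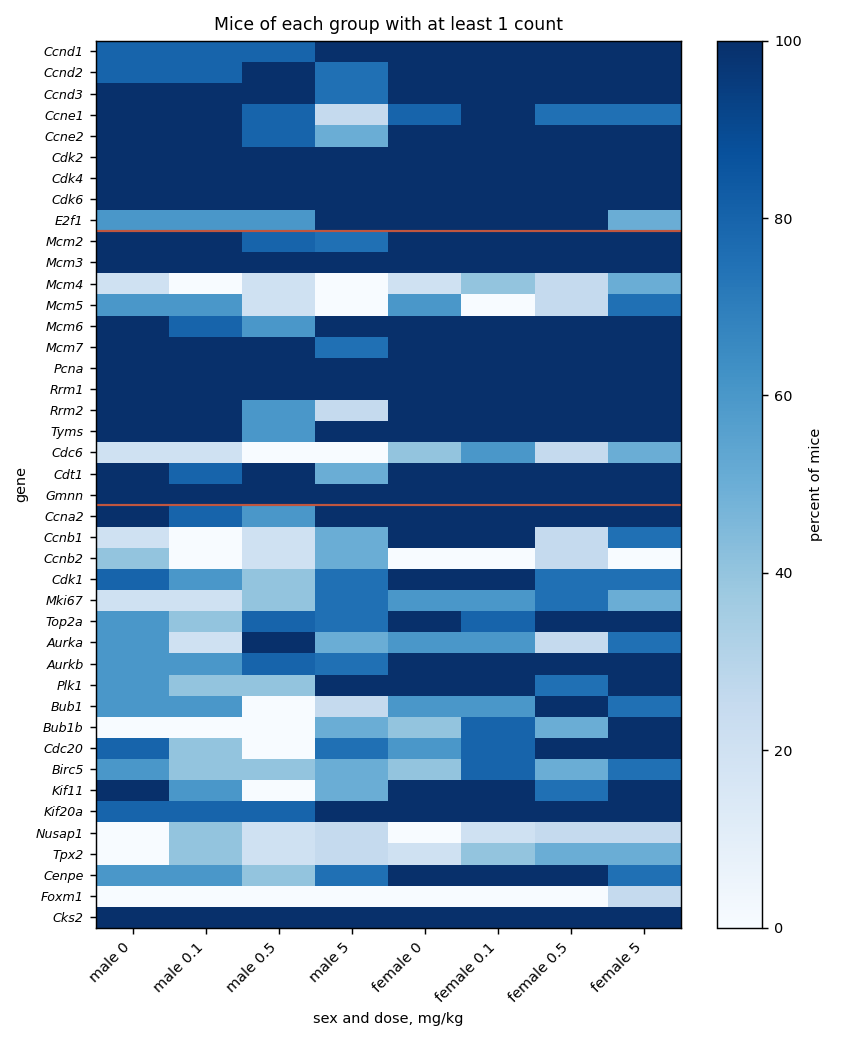
Percent of mice in each group (columns, sex and dose in mg/kg) with at least 1 count for the probe of each of the 42 genes (rows). Red lines separate the genes of G1 and S-phase entry (top), DNA replication (middle) and G2 and mitosis (bottom). Most genes of the upper 2 blocks are dark in all groups, whereas many mitotic genes are pale in males at 0, 0.1 and 0.5 mg/kg.

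At 5 mg/kg, 4 of the 37 tested genes were raised in males and 1 was lowered (edgeR quasi-likelihood test, Benjamini-Hochberg adjusted p under 0.10 over 18570 probes). These raised genes were Ccnd1 (cyclin D1, which drives G1 progression), Ccna2 (cyclin A2, of S phase and G2), Kif20a (a kinesin of cytokinesis) and Bub1b (a spindle checkpoint kinase), and the lowered gene was Cdk2, the partner of cyclins E and A. Over all probes tested, 4.21% were raised and 8.49% were lowered in this comparison. In females at 5 mg/kg, Ccnd1 was raised and no other gene of the 37 passed, against 2.26% of all probes raised and 2.26% lowered. At 0.5 mg/kg, 1 gene was lowered in males (Kif11, the kinesin that separates spindle poles) and none was raised, against 0.242% of all probes lowered and 0.382% raised. The comparisons within a sex share their control mice. Where each sex was fitted apart, and where counts were thinned to the smallest library, only Ccnd1 of the 4 genes stayed raised in males at 5 mg/kg.

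Groups that did not overlap were few. In males at 5 mg/kg, every treated mouse lay above every control for 3 genes (Ccnd1, Ccna2 and Kif20a) and below for 1 gene (Cdk2), against 2.78% and 4.80% of all probes. In females at 5 mg/kg, every treated mouse lay above every control for 3 genes, Ccnd1, Ccnd3 (cyclin D3) and Top2a (DNA topoisomerase II alpha), and below for none, against 4.40% and 4.31% of all probes. Of these 3, Ccnd3 and Top2a did not pass the test.

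Among the genes of G1 and S-phase entry, Ccnd1 had the largest fitted increase of the called genes with counts in control mice. Control males held 0.841, 0.130, 5.48, 1.73 and 0 CPM of Ccnd1. Males at 0.1 mg/kg held 0.808, 2.97, 0, 7.39 and 0.957 CPM, and males at 0.5 mg/kg held 1.13, 0, 3.45, 1.74 and 1.38 CPM. The 4 males at 5 mg/kg held 8.49, 10.3, 33 and 26.7 CPM. All 4 were above every one of the other 15 males, and the 3 groups at lower doses overlapped. At 5 mg/kg the mean was 19.6 ± 12.1 CPM (SD, n = 4), compared with 1.64 ± 2.26 CPM (SD, n = 5) in control males, for a log2 fold change of 3.57 ± 0.81 (SE; edgeR adjusted p = 0.0026).

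In females Ccnd1 was also raised at 5 mg/kg. Control females held 8.38, 4.71, 2.25, 2.66 and 6.41 CPM of Ccnd1. Females at 0.1 mg/kg held 3.74, 10.1, 6.25, 8.61 and 7.21 CPM, and those at 0.5 mg/kg held 6.70, 14.5, 22.6 and 8.62 CPM. At 5 mg/kg the values were 32, 33.9, 26.7 and 12.9 CPM. Every female at 5 mg/kg was above every control female, while the highest female at 0.5 mg/kg lay above the lowest at 5 mg/kg. The female mean was 4.88 ± 2.57 CPM (SD, n = 5) in controls, and it rose with the dose of 5 mg/kg to 26.4 ± 9.47 CPM (SD, n = 4), for a log2 fold change of 2.43 ± 0.75 (SE; edgeR adjusted p = 0.0655). At 0.5 mg/kg the log2 fold change was 1.42 ± 0.74 (SE) and did not pass (edgeR adjusted p = 1). The male call at 5 mg/kg passed without any one mouse, whereas the female call did not pass without female 0 mg/kg replicate 2, 3 or 4 or female 5 mg/kg replicate 1, 2 or 3, with adjusted p between 0.138 and 0.184 in those 6 fits. Ccnd1 has another probe in the table, which gave a log2 fold change of 2.36 in males (edgeR adjusted p = 0.0507) and of 2.88 in females (adjusted p = 0.0237).

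Cdk2 was the only called gene that was lower at 5 mg/kg in males. Control males held 9.85, 19.5, 16.6, 9.57 and 12.4 CPM of Cdk2, and males at 5 mg/kg held 8.73, 3.75, 4.50 and 6.03 CPM. Males at 0.1 mg/kg held 6.81, 10.1, 13.3, 4.29 and 8.40 CPM, and males at 0.5 mg/kg held 6.45, 18.9, 5.55, 8.0 and 6.60 CPM. Every male at 5 mg/kg was below every control male, but both lower doses overlapped with the controls and with 5 mg/kg. The log2 fold change at 5 mg/kg was -1.24 ± 0.40 (SE; edgeR adjusted p = 0.0444). Without male 0 mg/kg replicate 2, male 5 mg/kg replicate 2 or male 5 mg/kg replicate 3, the adjusted p lay between 0.104 and 0.116. In females Cdk2 was not called. Control females held 9.74, 15.3, 7.77, 9.05 and 13.2 CPM of Cdk2 and females at 5 mg/kg held 9.10, 21.8, 22.3 and 15.1 CPM, which overlapped, with a log2 fold change of 0.63 ± 0.38 (SE; edgeR adjusted p = 0.588). Females at 0.1 mg/kg held 9.32, 10.9, 13.3, 8.42 and 7.64 CPM, and those at 0.5 mg/kg held 9.47, 10.1, 8.80 and 8.5 CPM, within or near the range of the control females. A further Cdk2 probe with 187 counts in all gave a log2 fold change of 1.29 in males (edgeR adjusted p = 0.790), so the decrease rests on 1 probe.

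**Figure D2:**
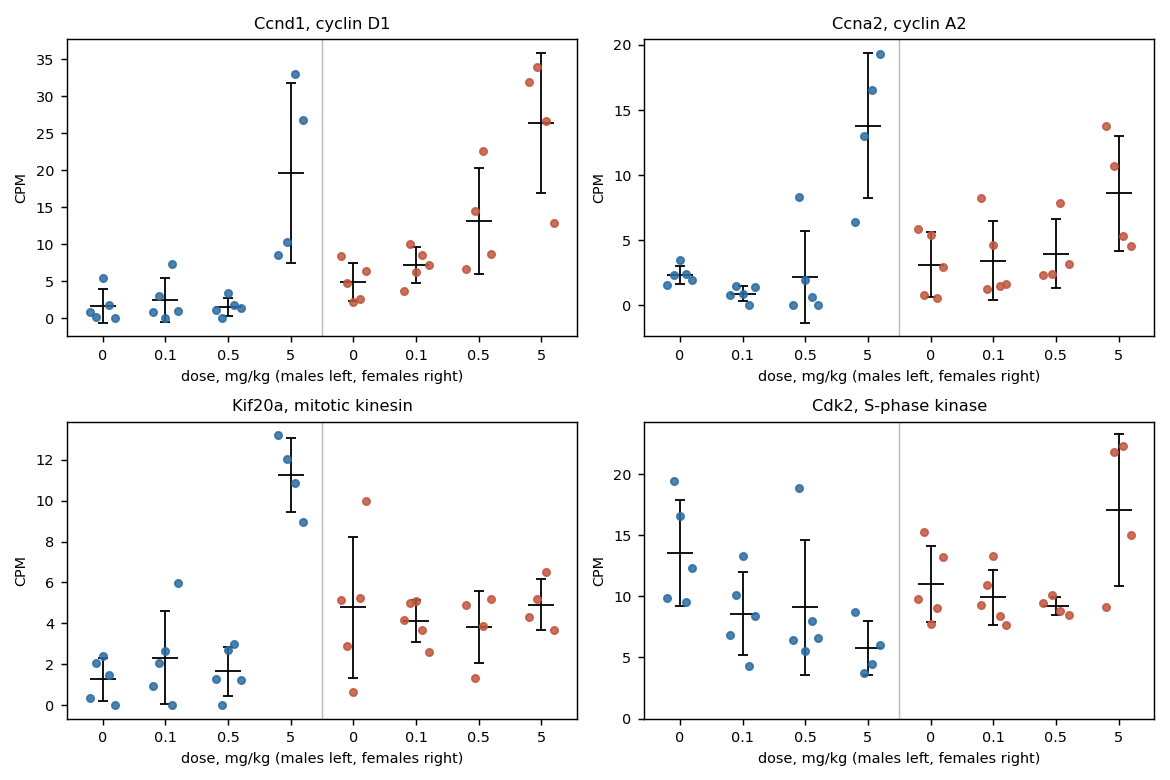
Level in CPM (linear axes) of Ccnd1, Ccna2, Kif20a and Cdk2 against dose in mg/kg, with males in blue on the left and females in red on the right. Each point is 1 mouse, and the bars give the mean and 1 SD. The 4 males at 5 mg/kg lie above all control males for Ccnd1, Ccna2 and Kif20a and below them for Cdk2, and in females the groups at 0 and 5 mg/kg separate for Ccnd1 only.

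The other 7 genes of G1 and S-phase entry did not pass in either sex at any dose with the probe used. Cdk4, the kinase that cyclin D1 activates, was present in every mouse. It ranged from 29.6 to 49.3 CPM in control males and from 43.9 to 65.3 CPM in males at 5 mg/kg, which overlapped (log2 fold change 0.38 ± 0.21, SE). In females Cdk4 ranged from 35.9 to 48.8 CPM and from 35.2 to 52.1 CPM (log2 fold change 0.10 ± 0.20, SE). Another Cdk4 probe, with 11573 counts in all, was raised in females at 5 mg/kg (log2 fold change 0.78 ± 0.20, SE; edgeR adjusted p = 0.0132). With that probe every mouse at 5 mg/kg lay above every control in both sexes, and males did not pass (log2 fold change 0.48 ± 0.20, SE; edgeR adjusted p = 0.130). The call of Cdk4 thus differed between its probes. For Cdk6, the other partner of the D-type cyclins, the log2 fold change was 0.13 ± 0.27 (SE) for males and 0.21 ± 0.27 (SE) for females. E2f1, a transcription factor that Rb restrains, had a log2 fold change of 3.22 ± 1.48 (SE) in males with an edgeR adjusted p of 0.175, and of -1.05 ± 1.43 (SE) in females. Ccnd2, Ccnd3, Ccne1 and Ccne2, the remaining cyclins of this group, lay between -1.57 and -0.03 in males and between -0.04 and 0.90 in females on the log2 scale.

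No gene of DNA replication passed at any dose in either sex. Of the 11 tested, 6 had a log2 fold change above 0 among males given 5 mg/kg, with a median of 0.13, and 10 were above 0 in females, with a median of 0.44, beside medians of -0.12 in males and -0.01 in females over all probes tested. Pcna, the sliding clamp of the replication fork, was at 18.9, 29.3, 25.4, 27 and 40.2 CPM in control males and at 12.3, 26.7, 8.25 and 22.1 CPM in males at 5 mg/kg. The groups overlapped, and the log2 fold change was -0.68 ± 0.32 (SE; edgeR adjusted p = 0.195). In females Pcna was at 27.3, 25.8, 25.7, 24.1 and 30.3 CPM and at 41.3, 48.2, 22.7 and 24 CPM. In these females 2 of 4 treated mice were above and 2 were below every control, and the log2 fold change was 0.35 ± 0.31 (SE; edgeR adjusted p = 0.876).

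The helicase subunits were mostly higher on average in females at 5 mg/kg, without a call. Mcm6 was at 2.51, 3.79, 13.2, 6.49 and 5.75 CPM in control females and at 16.9, 16.9, 24.3 and 7.15 CPM at 5 mg/kg (log2 fold change 1.36 ± 0.78, SE; edgeR adjusted p = 0.558). Mcm3 was at 3.04, 7.07, 4.21, 4.92 and 11.3 CPM and at 9.92, 21.1, 20.9 and 6.04 CPM (log2 fold change 1.24 ± 0.56, SE; edgeR adjusted p = 0.330). For Mcm6 the other 3 treated females lay above every control and replicate 4 did not, and for Mcm3 replicates 1 and 4 lay within the control range. Where each sex was fitted apart, 3 genes were raised in females at 5 mg/kg, Ccnd1, Mcm3 and Mcm6. In males Mcm6 ranged from 1.47 to 9.99 CPM in controls and from 3.71 to 16.4 CPM at 5 mg/kg (log2 fold change 0.55 ± 0.79, SE).

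Mcm5 and Rrm2 were close to the detection limit. Mcm5, another helicase subunit, had 18 counts over the 5 control males and 0 over the 4 males at 5 mg/kg, and 18 counts over the control females and 81 over the 4 females at 5 mg/kg. Neither sex passed (edgeR adjusted p = 0.189 in males and 0.845 in females). Rrm2, the regulated subunit of ribonucleotide reductase, had counts in all 5 control males (0.568 to 4.32 CPM) and in 1 of 4 males at 5 mg/kg (2.01 CPM). Its log2 fold change was -1.91 ± 1.12 (SE; edgeR adjusted p = 0.312) in males and 0.75 ± 1.01 (SE; adjusted p = 0.991) in females. Rrm1, the other subunit of that enzyme, was counted in every mouse, with log2 fold changes of 0.13 ± 0.23 (SE) and 0.44 ± 0.23 (SE). The other 5 tested genes of this group were Mcm2 and Mcm7 of the helicase, Tyms (thymidylate synthase), Cdt1 (which licenses origins) and Gmnn (geminin, the inhibitor of Cdt1), which lay between -0.69 and 0.79 in males and between -0.44 and 0.86 in females on the log2 scale.

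Among the genes of G2 and mitosis, 3 of the 17 tested were raised in males at 5 mg/kg and none in females. Control males held 1.56, 2.34, 3.48, 2.39 and 1.99 CPM of Ccna2, and males at 5 mg/kg held 6.37, 13, 16.5 and 19.3 CPM. Males at 0.1 mg/kg held 0.808, 1.48, 0.888, 0 and 1.38 CPM, and males at 0.5 mg/kg held 0, 8.30, 1.97, 0.616 and 0 CPM. Every male at 5 mg/kg exceeded every control. At 0.1 mg/kg every male was below every control without a call (edgeR adjusted p = 0.912), and 1 male at 0.5 mg/kg, replicate 2, exceeded the lowest male at 5 mg/kg. That library had 2608954 counts in all. The log2 fold change of Ccna2 at 5 mg/kg was 2.55 ± 0.88 (SE; edgeR adjusted p = 0.0650), and it did not pass without male 0 mg/kg replicate 1, 2, 4 or 5 or male 5 mg/kg replicate 3 or 4, with adjusted p between 0.105 and 0.126 in those 6 fits. Control females held 5.87, 0.819, 5.43, 0.590 and 2.91 CPM and females at 5 mg/kg held 13.8, 10.7, 5.36 and 4.59 CPM, which overlapped (log2 fold change 1.45 ± 0.85, SE; edgeR adjusted p = 0.578). Females at 0.1 mg/kg held 8.27, 1.25, 4.60, 1.46 and 1.65 CPM and those at 0.5 mg/kg held 2.32, 2.40, 7.89 and 3.22 CPM. Other Ccna2 probes did not pass in males at 5 mg/kg. One with 446 counts in all gave a log2 fold change of 1.41 (edgeR adjusted p = 0.689). Another, with 104 counts in all, had no count at 5 mg/kg and a mean of 0.886 CPM in control males (edgeR adjusted p = 0.160).

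Kif20a gave the mitotic call least dependent on single mice. Control males held 0.360, 2.08, 2.41, 1.46 and 0 CPM. Males at 0.1 mg/kg held 0.923, 2.08, 2.66, 0 and 5.95 CPM, and males at 0.5 mg/kg held 1.29, 0, 2.71, 2.98 and 1.23 CPM. Males at 5 mg/kg held 13.2, 12, 10.9 and 8.96 CPM, all above the other 15 males. The log2 fold change was 3.14 ± 0.85 (SE; edgeR adjusted p = 0.0135), and it passed without any one mouse. Control females held 5.13, 2.87, 0.655, 5.21 and 9.99 CPM, and females at 5 mg/kg held 4.32, 5.20, 6.5 and 3.66 CPM. The treated females lay within the range of their controls, with a log2 fold change of 0.04 ± 0.80 (SE; edgeR adjusted p = 1). Females at 0.1 mg/kg held 4.18, 5.00, 5.08, 3.66 and 2.60 CPM, and those at 0.5 mg/kg held 4.91, 1.30, 3.86 and 5.17 CPM. Another Kif20a probe also lay above every control in all males at 5 mg/kg, but with a log2 fold change of 2.24 it did not pass (edgeR adjusted p = 0.293).

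The calls of Bub1b and Kif11 rest on groups without counts, so raw counts are given. Bub1b had 0 counts in each of the 15 males at 0, 0.1 and 0.5 mg/kg and 26, 0, 0 and 10 counts in the males at 5 mg/kg. Against a floor of 3 counts over the control group, the level at 5 mg/kg from counts pooled over the group was at least 20.4-fold higher (edgeR adjusted p = 0.0381). However, 2 of the 4 treated males also had 0. Without male 5 mg/kg replicate 1 the adjusted p was 0.119, and without the libraries under 5000000 counts it was 0.127. In females Bub1b had 1, 0, 8, 0 and 0 counts in controls, 5, 2, 0, 8 and 5 counts at 0.1 mg/kg, 2, 0, 7 and 0 counts at 0.5 mg/kg, and 17, 5, 9 and 21 counts at 5 mg/kg. A control female, replicate 3, reached the range of the treated females, and the log2 fold change was 2.78 ± 1.84 (SE; edgeR adjusted p = 0.698).

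Kif11 had 6, 8, 29, 19 and 9 counts in control males, 10, 8, 0, 0 and 5 counts at 0.1 mg/kg, 0 counts in all 5 males at 0.5 mg/kg, and 0, 16, 0 and 10 counts at 5 mg/kg. The level at 0.5 mg/kg was at least 20.7-fold lower than in controls against the same floor (edgeR adjusted p = 0.0559). At 5 mg/kg the groups overlapped, and the log2 fold change was -1.12 ± 1.34 (SE; edgeR adjusted p = 0.701), so the decrease did not follow the order of doses. The call at 0.5 mg/kg did not pass without male 0 mg/kg replicate 3 or male 0.5 mg/kg replicate 1, 3, 4 or 5, with adjusted p between 0.106 and 0.154 in those 5 fits. Females had 6, 16, 6, 10 and 7 counts of Kif11 in controls, 22, 2, 23, 13 and 13 counts at 0.1 mg/kg, 15, 8, 56 and 0 counts at 0.5 mg/kg, and 17, 16, 7 and 29 counts at 5 mg/kg, which overlapped with the controls.

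The proliferation markers most often read in tissue were counted in some treated mice and not in others. Mki67, the gene of the Ki-67 antigen, had 8, 0, 0, 0 and 0 counts in control males and 0, 12, 16 and 44 counts in males at 5 mg/kg (log2 fold change 4.08 ± 1.94, SE; edgeR adjusted p = 0.193). In females it had 0, 25, 3, 0 and 12 counts in controls and 0, 73, 0 and 9 counts at 5 mg/kg (log2 fold change 1.26 ± 1.76, SE; edgeR adjusted p = 0.997). No count of Mki67 was thus found in 1 male and in 2 females at 5 mg/kg. Cdk1, the mitotic kinase, was at 0.360, 0.908, 2.27, 0 and 1.28 CPM in control males and at 2.59, 0, 11.3 and 6.49 CPM at 5 mg/kg (log2 fold change 2.37 ± 1.44, SE; edgeR adjusted p = 0.332). In females Cdk1 was at 1.15, 0.614, 0.187, 1.28 and 2.50 CPM in controls and at 3.38, 3.83, 4.83 and 0 CPM at 5 mg/kg (log2 fold change 1.38 ± 1.40, SE; edgeR adjusted p = 0.926). In each sex 3 of the 4 treated mice were above every control and the other had no count. Another Cdk1 probe, with 283 counts in all, was raised in males (mean 3.93 CPM at 5 mg/kg and 0.104 CPM in controls, edgeR adjusted p = 0.0864), although the groups overlapped, and did not pass in females.

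Top2a, which untangles sister chromatids, was at 0.841, 6.36, 0, 0 and 1.71 CPM in control males and at 0, 1.99, 8.25 and 2.94 CPM at 5 mg/kg (log2 fold change 0.85 ± 1.21, SE). In females it was at 1.57, 1.13, 4.59, 0.492 and 5.08 CPM in controls and at 13.5, 12.7, 5.71 and 5.87 CPM at 5 mg/kg (log2 fold change 1.87 ± 1.2, SE; edgeR adjusted p = 0.657). Birc5, survivin of the chromosomal passenger complex, had counts in 3 of 5 control males (up to 0.669 CPM) and in 2 of 4 males at 5 mg/kg (4.72 and 5.72 CPM), with an edgeR adjusted p of 0.280. In females Birc5 had counts in 2 of 5 controls and 3 of 4 mice at 5 mg/kg (adjusted p = 0.992). Cks2, a small subunit of cyclin-dependent kinases and the mitotic gene with the most counts, had a log2 fold change of -0.10 ± 0.29 (SE) for males and -0.44 ± 0.28 (SE) for females and passed in neither.

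Ccnb1, cyclin B1, was called only in the trend over the 4 doses. It had 0, 0, 0, 0 and 2 counts in control males, 0 counts in every male at 0.1 mg/kg, 30, 0, 0, 0 and 0 counts at 0.5 mg/kg, and 0, 28, 0 and 40 counts at 5 mg/kg. The trend passed (edgeR adjusted p = 0.0323), but its counts came from 4 of 19 males, and without male 0.5 mg/kg replicate 1 the adjusted p was 0.9998. In females Ccnb1 was at 0.943, 0.717, 2.15, 0.393 and 0.749 CPM in controls, 1.39, 1.64, 0.481, 0.275 and 0.347 CPM at 0.1 mg/kg, 0, 0, 2.63 and 0 CPM at 0.5 mg/kg, and 1.17, 0.912, 0.527 and 0 CPM at 5 mg/kg, with no call. The other mitotic genes tested were Aurka and Aurkb (Aurora kinases), Plk1 (Polo-like kinase), Bub1 (checkpoint kinase), Cdc20 (activator of the anaphase-promoting complex), Tpx2 (spindle assembly) and Cenpe (a kinetochore kinesin). Another Cdc20 probe, with 325 counts in all, was raised in males (mean 6.35 CPM at 5 mg/kg and 0.0268 CPM in controls, edgeR adjusted p = 0.00987), with groups that overlapped, and did not pass in females. With the probes used, Tpx2 had 11 counts in 1 male at 5 mg/kg and none in control males (edgeR adjusted p = 0.133), and the other 6 lay between -0.98 and 2.38 in males and between -0.79 and 2.33 in females on the log2 scale.

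**Figure D3:**
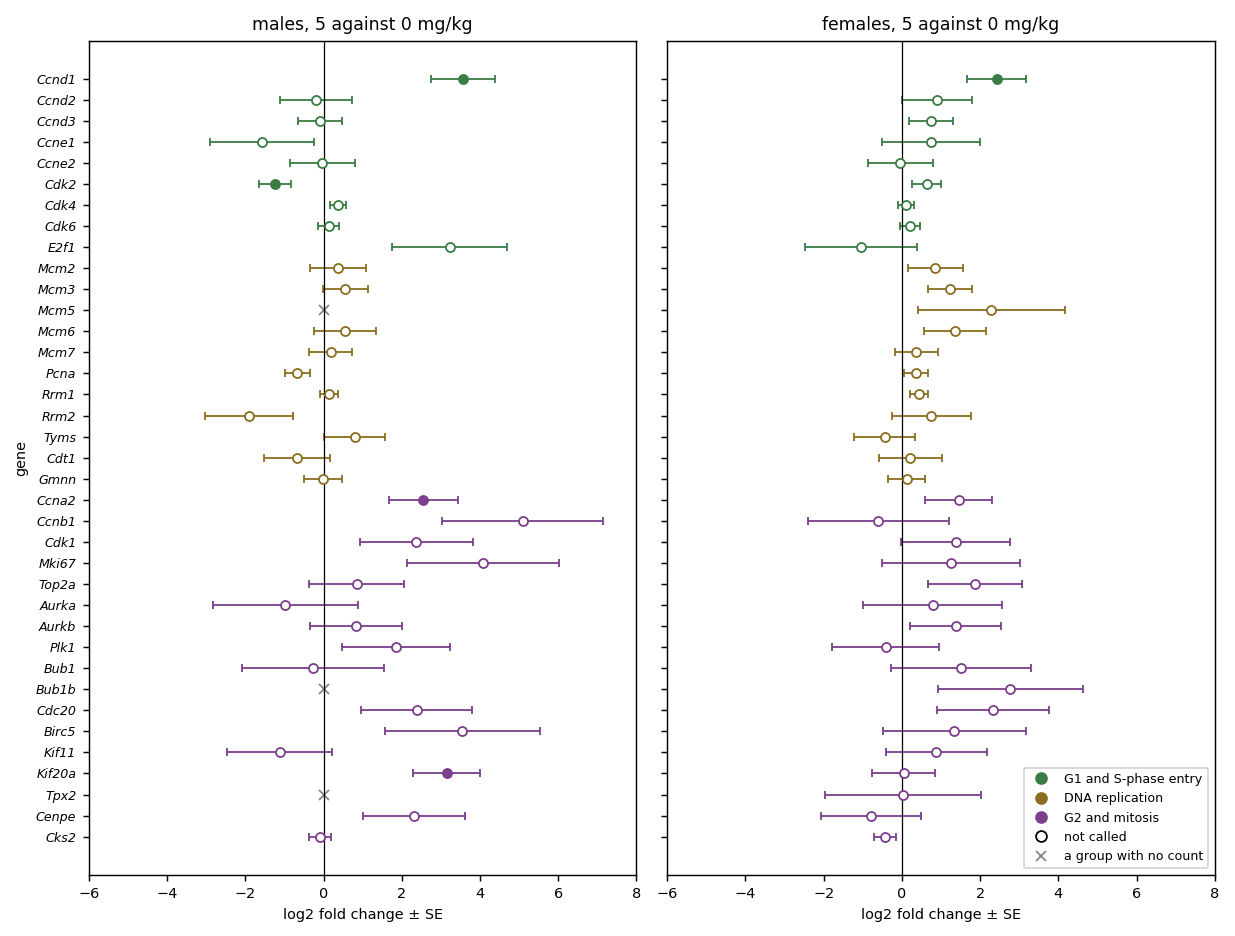
Log2 fold change with its SE (linear axis of log2 values) of the 37 tested genes at 5 mg/kg against controls of the same sex. Males are in the left panel and females in the right. Colours separate the genes of G1 and S-phase entry (green), DNA replication (brown) and G2 and mitosis (purple). Filled points passed an adjusted p under 0.10, hollow points did not, and a grey cross at 0 marks a gene with no count in one of the groups compared. The bars are widest among the mitotic genes, which had the fewest counts.

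The changes of the 3 groups of genes at 5 mg/kg are summarised by their counts and medians. Of the 17 tested mitotic genes, 13 had a log2 fold change above 0 in males, with a median of 2.37, and 13 of 17 in females, with a median of 1.26. The 9 genes of G1 and S-phase entry had 4 above 0 and a median of -0.03 in males, and 7 above 0 and a median of 0.63 in females. These values are for 1 probe per gene, and other probes of some G1 genes went the other way in males. In males at 0.5 mg/kg the medians were 0.01, -0.53 and -0.25 for the G1, replication and mitotic genes, beside -0.06 over all probes tested. These counts and medians cover only the genes that passed the filter, which a gene high in 1 group could pass through that group alone, and they describe the lists without a test.

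The summed level of all 20 mitotic genes ranged from 25.8 to 58.0 CPM in control males, from 23.8 to 51.1 CPM at 0.1 mg/kg, from 33.3 to 46.6 CPM at 0.5 mg/kg and from 80.3 to 101 CPM at 5 mg/kg. The males at 5 mg/kg did not overlap with the other males, and the ratio of the mean at 5 mg/kg to that of controls was 2.21 ± 0.80 (SD propagated from both groups). In females the same sum ranged from 33.1 to 67.5 CPM in controls and from 52.5 to 95.1 CPM at 5 mg/kg, which overlapped, with a ratio of 1.27 ± 0.48 (SD). With Cks2 left out, the sum ranged from 9.04 to 25.1 CPM in control males and from 52.4 to 85.0 CPM in males at 5 mg/kg, and from 13.5 to 40.0 CPM in control females and from 27.3 to 71.9 CPM in females at 5 mg/kg. The replication sum had a ratio of 1.02 ± 0.29 (SD) in males and 1.39 ± 0.43 (SD) in females, and its groups overlapped in both sexes. The G1 sum had a ratio of 1.27 ± 0.23 (SD) in males and 1.43 ± 0.29 (SD) in females, with overlap in both. With all probes of the genes summed it did not overlap in either sex, at 168 to 182 CPM in control males and 199 to 254 CPM at 5 mg/kg, and at 146 to 203 and 239 to 299 CPM in females. Scaled to raw library totals it did not overlap in either sex. In a bulk sample, fewer cells of a type and less RNA per cell cannot be told apart, and the same holds for more.

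**Figure D4:**
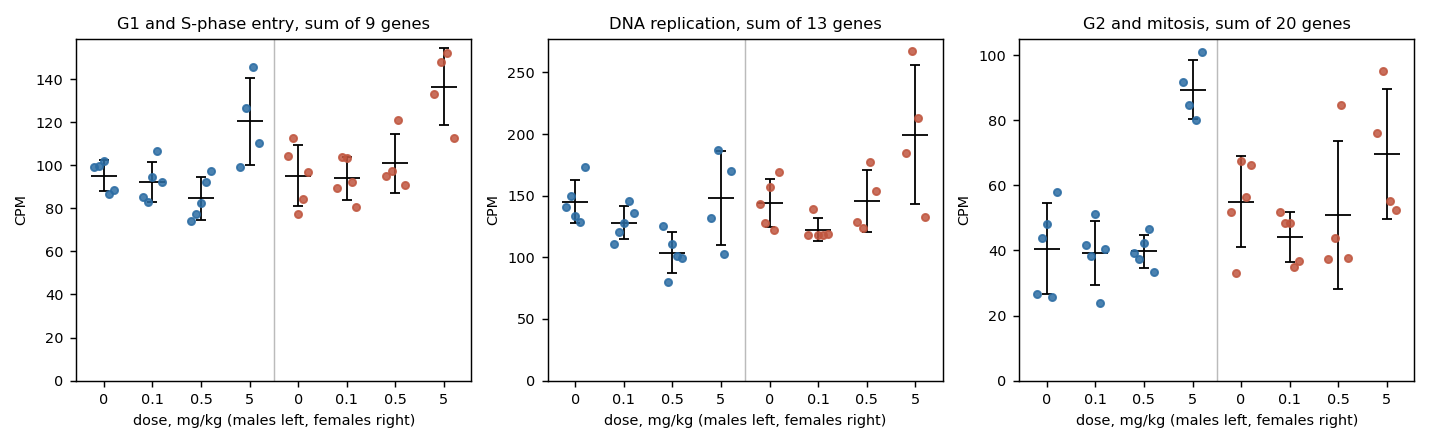
Summed level in CPM per mouse of the 9 genes of G1 and S-phase entry, the 13 genes of DNA replication and the 20 genes of G2 and mitosis, against dose in mg/kg, with males in blue on the left and females in red on the right. Bars give the mean and 1 SD, and the axes start at 0. The mitotic sum of the 4 males at 5 mg/kg lies between 80.3 and 101 CPM, above that of all other males, whereas female groups overlap.

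The trend over the rank of the dose called 5 genes in males, Ccnd1, Ccna2, Ccnb1 and Kif20a upward and Cdk2 downward, against 4.24% of all probes upward and 8.98% downward. Per dose step the slopes were 1.02 ± 0.25 for Ccnd1, 0.87 ± 0.28 for Ccna2, 0.90 ± 0.26 for Kif20a and -0.37 ± 0.12 for Cdk2 (log2, SE). Without male 0 mg/kg replicate 2, male 5 mg/kg replicate 2 or male 5 mg/kg replicate 3 the slope of Cdk2 did not pass, with adjusted p between 0.120 and 0.134. In females the trend called Ccnd1 alone (0.82 ± 0.24 per step, SE; edgeR adjusted p = 0.0376), against 2.63% upward and 2.67% downward, and it did not pass without female 0 mg/kg replicate 4 or female 5 mg/kg replicate 2 (adjusted p = 0.112 and 0.108). With each sex fitted apart, the trend called 0 genes in males and 5 in females, and with counts thinned to the smallest library it called 2 in males. No gene called in a trend passed at 0.1 or 0.5 mg/kg. At 0.5 mg/kg in females no gene of the 37 passed in edgeR and 0 had an unadjusted p under 0.05, with none called by DESeq2, beside 0.108% of all probes raised and 0.00539% lowered. At 0.1 mg/kg none passed in either sex by edgeR or DESeq2, with 2 genes in males and 1 in females at an unadjusted p under 0.05, and 0% of all probes passed in each sex.

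Averaged over both sexes, 4 genes were raised at 5 mg/kg and none was lowered, against 5.78% and 9.38% of all probes. They were Ccnd1 (log2 fold change 3.0, edgeR adjusted p = 0.000106), Ccna2 (2.0, adjusted p = 0.0254), Bub1b (adjusted p = 0.0177) and Kif20a (1.59, adjusted p = 0.0651). The mean for Kif20a joins a male change of 3.14 and a female change of 0.04, and it did not pass without male 0 mg/kg replicate 1, female 0 mg/kg replicate 2 or 3, or female 5 mg/kg replicate 3 (adjusted p between 0.105 and 0.117). Of the other probes in edgeR, those of Ccnd1 (adjusted p = 0.000667), Cdk4 (0.00133), Cdc20 (0.0110), Ccnd3 (0.0490) and Aurkb (0.0955) were raised and 1 of Mcm7 (0.0613) was lowered.

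Whether the sexes differed in their response was tested directly as the difference of the 2 log2 fold changes. No gene passed in edgeR at 5 mg/kg, where 6 of 37 had an unadjusted p under 0.05 and 0.630% of all probes passed. The female minus male difference was 1.87 ± 0.55 (SE) for Cdk2 (edgeR adjusted p = 0.160), -3.10 ± 1.17 (SE) for Kif20a (adjusted p = 0.331) and -1.14 ± 1.07 (SE) for Ccnd1 (adjusted p = 0.826). DESeq2 in place of edgeR called 2 genes, Cdk2 and Kif20a, and edgeR called 1 gene without male 0.5 mg/kg replicate 2, male 5 mg/kg replicate 1 or male 5 mg/kg replicate 4. At 0.5 and 0.1 mg/kg no gene passed, with 3 and 1 at an unadjusted p under 0.05 and none called by DESeq2, beside 0.0108% and 0% of all probes. Control females and control males were compared in the same fit, and no gene passed by edgeR or DESeq2, with 4 at an unadjusted p under 0.05 and 2.60% of all probes called. Without male 0 mg/kg replicate 3, 1 gene passed. The control values of Kif20a (female minus male 1.91 ± 0.79, SE; edgeR adjusted p = 0.305) and Ccnd1 (1.57 ± 0.75, SE; adjusted p = 0.421) were higher on average in females without passing.

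Other genes of the same pathways were examined from 5 further lists. In males at 5 mg/kg, 1 of 8 tested inhibitors of cyclin-dependent kinases and pocket proteins was raised and none lowered, 0 of 15 other E2F, MYB and MYC factors were raised and 1 was lowered, and 2 of 37 other replication genes were raised and 4 lowered. Of 32 other G2 and mitotic genes 4 were raised and 1 was lowered, and of 15 cyclins and kinases that act outside the cycle 1 was raised and none lowered. In females at 5 mg/kg the only call over these 5 lists was a decrease of Tk1, against 2.26% of all probes raised and 2.26% lowered. The shares raised in males were thus 4 of 32 among the other mitotic genes and 3 of 17 among the mitotic genes above, beside the 4.21% of all probes. Both shares include genes with no count in control males, Bub1b above and Ncapg, Cdc25a and Kif23 below. Such genes could pass the filter on low counts only through mice of other groups, the treated males among them. The shares were not tested as lists, and no conclusion on the mitotic genes is drawn from them. The shares lowered were 4 of 37 among the other replication genes and 1 of 32 among the other mitotic genes, beside 8.49% of all probes.

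Tk1, the S-phase thymidine kinase, was lowered in both sexes, opposite in direction to Ccnd1. It was at 24, 21.5, 32.4, 8.24 and 15.3 CPM in control males and at 5.66, 0, 0 and 2.01 CPM in males at 5 mg/kg. Control females held 69.9, 44.6, 20.8, 64.9 and 92.6 CPM and females at 5 mg/kg held 4.43, 7.66, 7.99 and 11.9 CPM. Every treated mouse was below every control of its sex. The log2 fold change was -3.44 ± 0.65 (SE; edgeR adjusted p = 0.000267) in males and -2.87 ± 0.57 (SE; adjusted p = 0.000774) in females, and neither call was lost without any one mouse. The other Tk1 probe gave -0.34 for males and -0.90 for females on the log2 scale and passed in neither, so the probes of this gene differed in the size of the change.

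Spc24, a subunit of the Ndc80 kinetochore complex, was raised in males. Control males held 13.3, 7.52, 13, 11.4 and 8.10 CPM and males at 5 mg/kg held 38.2, 42.9, 54.4 and 48.8 CPM, with no overlap (log2 fold change 2.11 ± 0.45, SE; edgeR adjusted p = 0.00137). Males at 0.1 mg/kg held 12.7, 31.5, 19.1, 25.5 and 9.36 CPM, and males at 0.5 mg/kg held 15.6, 0.377, 7.03, 23.2 and 19.2 CPM. Another Spc24 probe, with 930 counts in all, gave a log2 fold change of 2.03 in males. Its groups overlapped and it did not pass (edgeR adjusted p = 0.115). Control females held 16, 8.40, 12.2, 10.0 and 4.66 CPM and females at 5 mg/kg held 21.2, 10.9, 11.3 and 8.85 CPM, which overlapped (log2 fold change 0.35; edgeR adjusted p = 0.983). The difference between the sexes, -1.76, did not pass (adjusted p = 0.310).

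The other replication genes called in males were Gins2, Pole, Mcm8, Dbf4 and Chaf1b. Gins2, a subunit of the replicative helicase complex, had no count in control males and was at 4.24, 3.42, 0 and 9.27 CPM at 5 mg/kg, at least 61.6-fold higher against the floor of 3 counts (edgeR adjusted p = 0.00530). Control females held 0, 0, 1.03, 1.97 and 1.08 CPM of Gins2 and females at 5 mg/kg held 5.02, 5.02, 2.02 and 1.96 CPM, without a call. Pole, the leading-strand DNA polymerase, was at 0.480, 3.76, 4.28, 2.79 and 0 CPM in control males and at 13, 16.1, 16.1 and 11.3 CPM at 5 mg/kg (log2 fold change 2.63 ± 0.88, SE; edgeR adjusted p = 0.0553). The males did not overlap, but without male 0 mg/kg replicate 1 or 5 Pole did not pass (adjusted p up to 0.123). Other Pole probes did not pass in males. One with 979 counts in all gave a log2 fold change of 0.81 with overlap (edgeR adjusted p = 0.799). Another, with 121 counts in all, had no count in males at 5 mg/kg (edgeR adjusted p = 0.228). Mcm8, a helicase of recombination, was lowered (log2 fold change -4.97 ± 1.76, SE; edgeR adjusted p = 0.0722), and Dbf4, the activator of the Cdc7 kinase, had no count at 5 mg/kg and was at least 10.2-fold lower (adjusted p = 0.0856). Chaf1b, a subunit of a chromatin assembly factor, also had no count at 5 mg/kg (edgeR adjusted p = 0.0876). Mcm8 did not pass in 5 and Dbf4 in 6 of the fits without 1 mouse.

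**Figure D5:**
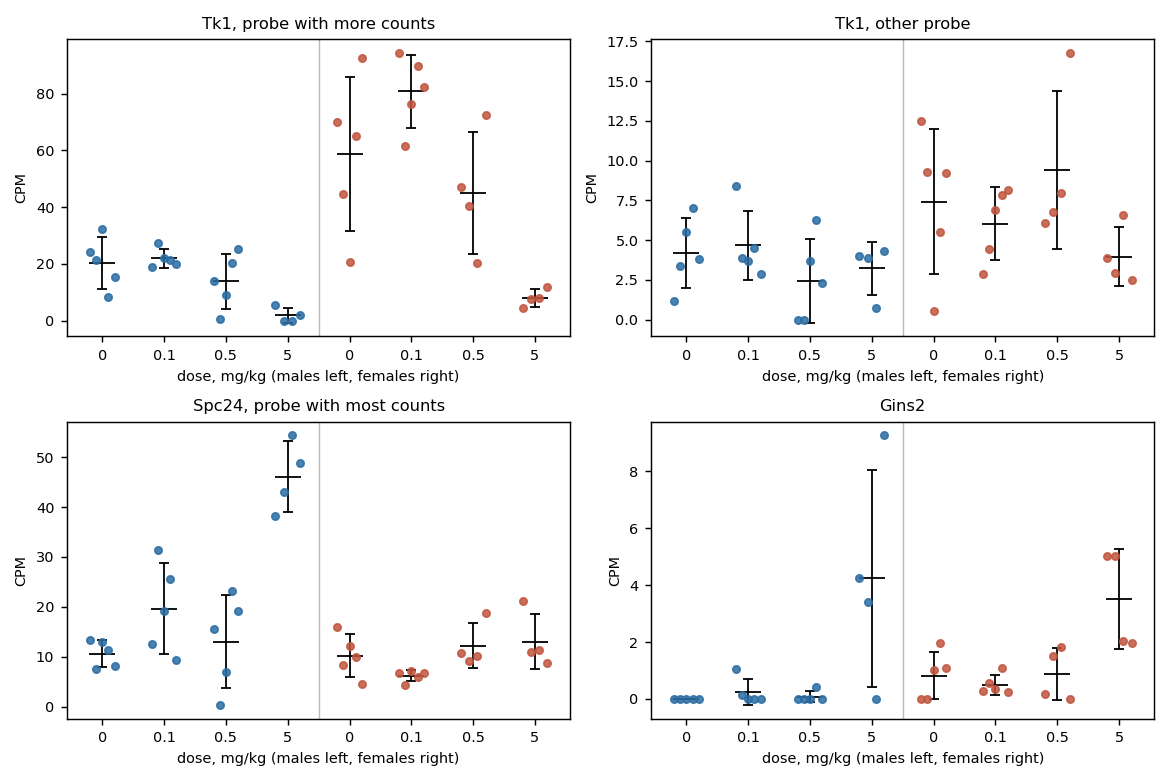
Level in CPM (linear axes) against dose in mg/kg of both Tk1 probes, of the Spc24 probe with most counts and of Gins2, with males in blue on the left and females in red on the right. Each point is 1 mouse, and bars give the mean and 1 SD. The Tk1 probe with more counts falls at 5 mg/kg in both sexes and the other does not separate, and Spc24 separates in males only.

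Among the remaining calls of these lists in males at 5 mg/kg, Ccng1, cyclin G1 and a target of p53, was at 19.9, 22.2, 14.8, 24.5 and 22.5 CPM in controls and at 42.2, 32.5, 36 and 30.1 CPM at 5 mg/kg (log2 fold change 0.76 ± 0.28, SE; edgeR adjusted p = 0.0811). All 4 treated males exceeded every control, but the call was lost in 8 of the fits without 1 mouse (adjusted p up to 0.198). Rb1, the Rb protein that restrains E2F, had no count in control males and was at 0, 2.32, 7.50 and 0 CPM at 5 mg/kg (edgeR adjusted p = 0.0320), which overlapped with the controls at 0, and did not pass without male 5 mg/kg replicate 3 (adjusted p = 0.102). Rb1 was also counted in 2 of 5 males at 0.1 mg/kg and 4 of 5 at 0.5 mg/kg. Its mean was 2.43 CPM at 0.5 mg/kg, beside 2.45 CPM at 5 mg/kg. Ncapg (a condensin subunit), Cdc25a (a phosphatase that activates cyclin-dependent kinases) and Kif23 (a kinesin of cytokinesis) also had no count in control males and were at least 22.1-fold, 14.7-fold and 9.61-fold higher. Incenp, the scaffold of the chromosomal passenger complex, and E2f7, a repressing E2F factor, had no count in males at 5 mg/kg and were at least 10.4-fold and 7.47-fold lower. Incenp did not pass without male 0 mg/kg replicate 2 (adjusted p = 0.106), and Ncapg, E2f7, Cdc25a and Kif23 did not pass in 7, 7, 20 and 20 of the fits without 1 mouse. For Cdc25a and for Kif23 the lowest log2 fold change in those fits was 0, so each increase depended on a single mouse. Cdkn1a, the inhibitor p21, did not pass in males (0.721, 1.04, 16.9, 0 and 6.39 CPM in controls, 14.1, 1.43, 0 and 19.3 CPM at 5 mg/kg; edgeR adjusted p = 0.771) or in females (adjusted p = 0.742).

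Markers of liver cell types were read in the same mice. All 7 hepatocyte markers were counted in every mouse, and 3 of 7 were lowered at 5 mg/kg in males (Tat, Hpd and Asgr1) and 3 of 7 in females (Ttr, Hpd and Asgr1), against 8.49% of all probes lowered in males and 2.26% in females. Their summed level ranged from 15775 to 23451 CPM in control males and from 13236 to 16218 CPM in males at 5 mg/kg, and from 20827 to 27878 CPM and from 16953 to 22389 CPM in females. No Kupffer cell or macrophage marker of 8 was called in males at 5 mg/kg, with summed levels of 51.4 to 220 CPM in controls and 60.0 to 194 CPM at 5 mg/kg. The summed T and NK cell markers ranged from 3.19 to 17.8 CPM in control males and from 0 to 4.88 CPM in males at 5 mg/kg, where Cd3d was at 0 and was lowered, and from 5.34 to 11.3 CPM and 3.25 to 11.1 CPM in females. Among the markers of endothelial cells, stellate cells and fibroblasts, cholangiocytes, B and plasma cells, neutrophils and erythroid cells, Kdr of endothelial cells was the only one called in males at 5 mg/kg, where it was lowered, and Elane of neutrophils was at 0 in all mice. The summed levels of those 6 lists overlapped between control males and males at 5 mg/kg, at 279 to 399 and 231 to 331 CPM for endothelial cells and 155 to 419 and 246 to 389 CPM for stellate cells and fibroblasts. The part of these cell types in the changes above was not tested. Depth was varied by thinning counts and by leaving out libraries under 5000000 counts. With counts thinned to the smallest library, only Ccnd1 of the genes raised in males at 5 mg/kg stayed raised. Those fits also remove counts or mice, so they do not give the part that the lower depth of these males had.

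Promoter sequence from RefSeq (GRCm38.p6) was read for the 250 bases before the gene start, which was given for 32 of the 42 genes. Shown are Cdk2 and Bub1b, the genes called at 5 mg/kg in males that have a window, and Cdk1, a mitotic gene that holds all 3 motifs searched. The motifs were the cell cycle homology region CHR (TTTGAA, or TTCAAA on the other strand), the CCAAT box (CCAAT or ATTGG) and an E2F site (TTCCCGC or TTGGCGC, or GCGGGAA or GCGCCAA), and capitals mark each match. In the order printed the windows lie at chr10:128705052-128705301 (minus strand), chr2:118597961-118598210 (plus strand) and chr10:69352913-69353162 (minus strand), each printed 5′ to 3′ towards the gene. For Bub1b the RefSeq gene record starts at 118598202, so the last bases of its window lie inside that record.
Cdk2: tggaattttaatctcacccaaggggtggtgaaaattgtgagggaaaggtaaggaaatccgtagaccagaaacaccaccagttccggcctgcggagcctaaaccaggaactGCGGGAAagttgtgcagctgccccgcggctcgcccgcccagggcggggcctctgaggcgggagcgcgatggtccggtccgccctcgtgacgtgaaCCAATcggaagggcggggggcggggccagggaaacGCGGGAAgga
Bub1b: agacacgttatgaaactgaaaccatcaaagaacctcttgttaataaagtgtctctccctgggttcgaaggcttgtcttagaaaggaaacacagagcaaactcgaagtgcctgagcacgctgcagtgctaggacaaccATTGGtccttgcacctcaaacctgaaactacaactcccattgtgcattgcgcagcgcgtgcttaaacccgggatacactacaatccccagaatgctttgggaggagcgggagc
Cdk1: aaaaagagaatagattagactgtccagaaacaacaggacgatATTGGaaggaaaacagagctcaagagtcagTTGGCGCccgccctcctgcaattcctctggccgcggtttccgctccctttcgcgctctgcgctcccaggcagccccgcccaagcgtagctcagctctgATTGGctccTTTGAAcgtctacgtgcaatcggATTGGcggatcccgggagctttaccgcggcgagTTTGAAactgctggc
The Cdk2 window held a pair of E2F matches and a CCAAT box but no CHR match, the Bub1b window held a single CCAAT box, and the Cdk1 window held CHR matches 71 and 15 bases upstream. Over the windows of all 27025 genes, 18.3% held a CHR match, 37.5% a CCAAT box and 6.45% an E2F match. Of the 15 mitotic genes with a window, 6 held a CHR match, 13 a CCAAT box and 3 an E2F match. Of the 11 replication genes 1, 8 and 5 did, and of the 6 genes of G1 and S-phase entry 0, 2 and 1 did. Kif11, called at 0.5 mg/kg, and Ccnb1, called in the trend, also have a window and are not printed. Kif11 held a CHR match and a CCAAT box, and Ccnb1 held a CCAAT box and an E2F match. These are matches of letters in the window and do not show binding.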

How the data were processed

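Scraped, formalin-fixed liver sections of 40 mice, 5 per sex and dose out of 25 dosed, were assayed by TempO-Seq, in which probe pairs ligated on the RNA are sequenced. The authors counted reads per probe and deposited raw counts, without normalization, of 37 mice after removing 3 libraries of low depth or few probes. The submitters' processing notes name bcl2fastq 2.17.1.14 and Bowtie. A genome build is not given in the sources used here.

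The test was edgeR 4.0.16 (limma 3.58.1, R 4.3.3), run on the counts of 30146 probes. filterByExpr with the 8 groups kept 18570 probes, TMM factors scaled the libraries, and 1 quasi-likelihood model was fitted to all 37 mice, so all groups share 1 estimate of the spread. The fit was tested on simulated data in which only probes above a minimum mean level in controls were changed. Its recovery of changes in probes with few or no counts in controls was therefore not checked. Each dose was compared with controls of its sex, with the trend over dose rank, the difference between sexes and the mean of both sexes as further contrasts. Benjamini-Hochberg adjustment covered all 18570 probes and calls used 0.10. SEs were derived from the log2 fold change and its F statistic. CPM are relative to 1000000 counts of TMM-scaled totals. A floor is 3 counts over a group and covers counting error only. Where a group had no count, a bound against that floor, from counts pooled over each group, replaces the fitted fold. Alternatives were DESeq2 1.42.0 and its size factors, other filters, a robust fit, each sex apart, summed probes, thinned counts, libraries under 5000000 counts left out, and each mouse left out in turn.

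The 42 genes and all lists were chosen with earlier results of these data known. Named were genes called in any comparison, 11 genes set by name (Ccnd1, Cdk4, Mcm5, Mcm6, Pcna, Rrm2, Mki67, Top2a, Cdk1, Ccnb1 and Birc5), Cdkn1a, and up to 5 called genes per pathway list and sex.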

Additional observations from a re-analysis of the deposited data

Results flagged for a closer look

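Single mice stood far from the others of their group in 21 of 161 groups of mice looked at, by Dixon's test. That test marks about 1 in 20 groups of normally distributed values. A group with counts in 1 mouse only is always marked, so this rate does not hold for genes with few counts. In most of the 21 groups a gene with few counts was read in 1 mouse and little or not at all in the rest. At most 3 marked values fell in 1 mouse.

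Among males, Cdk2 was at 18.9 CPM and Ccna2 at 8.30 CPM in male 0.5 mg/kg replicate 2, and in male 0.5 mg/kg replicate 1 Ccnb1 was at 4.83 CPM. Mcm5 was at 0.718 CPM in male 0.5 mg/kg replicate 4, Rrm2 at 2.01 CPM in male 5 mg/kg replicate 4, and Cdk4 at 25.8 CPM in male 0.1 mg/kg replicate 2, the lowest of its group. Top2a was at 6.36 CPM in male 0 mg/kg replicate 2 and 1.04 CPM in male 0.1 mg/kg replicate 2. Mki67 was at 0.961 CPM in male 0 mg/kg replicate 1 and 0.744 CPM in male 0.1 mg/kg replicate 5, and Ccnb1 at 0.284 CPM in male 0 mg/kg replicate 5.

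Among females at 0.5 mg/kg, replicate 3 stood high for Ccna2 at 7.89 CPM, for Ccnb1 at 2.63 CPM and for the sum of the mitotic genes at 84.6 CPM. In the same group Mcm5 was at 0.400 CPM in replicate 2 and Spc24 at 18.8 CPM in replicate 4. Mcm6 was low at 3.39 CPM in female 0.1 mg/kg replicate 5, and the sum of the replication genes was 139 CPM in female 0.1 mg/kg replicate 2. Bub1b was at 0.749 CPM in female 0 mg/kg replicate 3, Birc5 at 2.25 CPM in female 0 mg/kg replicate 5, and Mki67 at 6.66 CPM in female 5 mg/kg replicate 2.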

How the results depend on the processing

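The male and female calls of Ccnd1 at 5 mg/kg held under every other normalization, filter and test. With each sex fitted apart, males at 5 mg/kg had 1 gene raised in place of 4 and 0 lowered in place of 1, 0 in place of 1 was lowered in males at 0.5 mg/kg, 3 in place of 1 were raised in females at 5 mg/kg, and the trend called 0 in place of 5 in males and 5 in place of 1 in females. That fit gives no difference or mean of the sexes and no comparison of controls. With counts thinned, 1 gene was raised in males at 5 mg/kg, 0 were lowered at 0.5 mg/kg and the male trend called 2. With the probes of a gene summed, 7 in males at 5 mg/kg were raised and 0 lowered, 0 were lowered at 0.5 mg/kg and the mean of both sexes called 9 in place of 4. DESeq2 lowered 2 genes in males at 0.5 mg/kg, called 2 in the female trend and 2 in the difference between sexes at 5 mg/kg, where edgeR called 0. Without the libraries under 5000000 counts the female trend called 2 and that difference 1. Without a filter 0 were lowered in males at 5 mg/kg, and at a threshold of 0.05 the counts were 0 in females at 5 mg/kg and 0 lowered in males at 0.5 mg/kg. Scaled to raw totals, the ratio of the G1 sum in males was 1.5 in place of 1.27. E2f7 turned from lower to higher with probes summed, at 0.61 in males and 0.28 in the mean of both sexes (log2). The cause was not tested.

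With each mouse left out in turn, males at 5 mg/kg had 3 to 5 raised and 0 to 2 lowered, males at 0.5 mg/kg 0 to 1 lowered, and females at 5 mg/kg 0 to 1 raised. The trend called 4 to 6 in males and 0 to 1 in females, the difference between sexes at 5 mg/kg 0 to 1, the mean of both sexes 3 to 5 and the comparison of controls 0 to 1. The settings of the pathway genes and the mitotic sum without Cks2 were chosen after seeing the data. No paired analysis was possible because the labels give mice of different groups no shared number.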
